A study of Mus musculus with 18 samples.

Results

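The protein tyrosine phosphatases described here were Ptpn1, Ptpn2, Ptpn6, Ptpn7, Ptpn11, Ptpn12, Ptpn18, Ptpn22 and Ptprc. They were taken by gene symbol, and all 9 were found among the 23420 genes listed for each library. The choice was made with earlier results of these data known. Ptpn1 was also named by the study as a regulatory gene from these same libraries, so its direction here is not independent evidence. The 18 RNA-seq libraries came from splenic B cells that were purified with beads from mice of 5 to 7 weeks. All mice were MRL/lpr, which are homozygous for the lpr allele of Fas and prone to lupus-like disease. There were 6 groups, each with 3 libraries, in 2 arms. In the first arm every mouse was female and Tlr7-/-, so that TLR9, or its chimera, was the remaining receptor of this pair. One genotype was Tlr9+/- Tlr7-/- (called Tlr9het), and the other was Tlr997 Tlr7-/- (called Tlr997), whose TLR9 signals through the TIR domain of TLR7 in place of its own. Cells of both genotypes were cultured for 4 h without stimulus or with CpG (ODN 1826, a ligand of TLR9) at 10 µg/ml. In the second arm every mouse was male and Tlr779 Tlr9-/- (called Tlr779), so that TLR7 carried the TIR domain of TLR9, and cells were cultured for 4 h without stimulus or with CL097, a ligand of TLR7, at 5 µg/ml. For Tlr9het, titles that name a heterozygote were followed where the treatment note writes Tlr9-/-. The chimeric alleles were made in the endogenous loci and are therefore in every cell of the animal, not in B cells alone. Sex, genotype and stimulus all changed between the arms and cannot be told apart, so levels and responses of the arms are given side by side and were not compared. Whether the arms were normalized together is not stated.

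Protein tyrosine phosphatases remove phosphate from tyrosine and so set how long a kinase signal lasts. In B cells they act at several points. CD45, the product of Ptprc, is a membrane phosphatase that opens Src family kinases for activation. SHP-1, the product of Ptpn6, is brought to the membrane by inhibitory receptors with ITIM motifs and dampens antigen receptor signals. SHP-2, the product of Ptpn11, mostly favors signaling from receptors to the Ras pathway. PTP1B and TC-PTP, the products of Ptpn1 and Ptpn2, are close relatives that act on Janus kinases and STAT proteins. Ptpn12, Ptpn18 and Ptpn22 encode the PEST group, which works with the kinase Csk and with cytoskeletal adaptors, and Ptpn7 encodes a phosphatase that acts on MAP kinases.

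Values are log2 CPM as deposited, that is, read counts scaled to library size on a log2 scale, and a difference of 1 is a doubling. A gene was called where limma gave a Benjamini-Hochberg adjusted p under 0.05 over all genes tested together with a log2 fold change over 0.5 in size. Read counts were not analysed here, so the depth of each library is unknown. Library values of one group correlated at 0.944 to 0.989 over 11676 genes, and the lowest value was within unstimulated Tlr997. The 4 B cell markers used (Cd79a, Cd79b, Ms4a1 and Pax5) summed to 4523 to 6110 CPM in unstimulated and 1118 to 2430 CPM in stimulated libraries, and each was measured above the filter on low values, as the B cell label requires. The 6 T cell markers summed to 2.09 to 24.0 CPM, the 4 NK cell markers to 1.03 to 5.52 CPM and the 3 plasmacytoid dendritic cell markers to 1.77 to 9.06 CPM. The 5 macrophage markers summed to 76.4 to 425 CPM and the 4 neutrophil markers found in the files to 3.23 to 119 CPM. The 5 erythroid markers summed to 14.8 to 975 CPM, and the 3 plasma cell markers to 190 to 893 CPM. Of the erythroid markers, 2 (Hba-a1 and Hbb-b1) were under 1 CPM in every library. Erythroid sums also spread widely within a group, from 15.3 to 283 CPM in unstimulated Tlr9het and 35.7 to 790 in unstimulated Tlr997. Some of these lists moved with the stimulus. Macrophage sums were 174 to 238 CPM without and 123 to 141 with CpG in Tlr9het, 106 to 285 and 80.9 to 166 in Tlr997, and 161 to 425 and 76.4 to 163 with CL097 in Tlr779. Plasma cell sums were 319 to 594 and 190 to 347, 380 to 487 and 212 to 283, and 548 to 893 and 332 to 550 in the same order. The macrophage gene Lyz2 (-0.97, -1.08 and -1.65) and the plasma cell gene Sdc1 (-1.43, -2.02 and -2.49) were called lower in all 3 responses. Other genes of these lists did not all follow. Itgam of the macrophage list was at 0.61, 0.98 (called higher) and -0.01. Prdm1 of the plasma cell list was at 0.37, -0.11 and 0.26, each not called. T cell sums were 4.13 to 10.8 without and 10.7 to 24.0 with CpG in Tlr9het, and 2.77 to 9.59 and 8.84 to 18.9 in Tlr997. Of the 6 T cell markers only Cd8a was called higher with CpG, at 2.18 in Tlr9het and 2.56 in Tlr997. The other 5 were not called in either genotype, among them Cd4 at 0.25 and -0.11. The part of these cells in the values below was not tested. In such bulk libraries fewer cells of a type and less RNA per cell cannot be told apart.

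CpG raised Ptpn1 in Tlr9het B cells to 2.74 times the unstimulated level, whereas the increase in Tlr997 B cells was 1.36-fold and did not reach the fold threshold. Ptpn1 encodes PTP1B, a phosphatase of the endoplasmic reticulum surface. In unstimulated Tlr9het libraries 1 to 3 its levels were 7.73, 7.997 and 8.01 log2 CPM, and with CpG they were 9.34, 9.31 and 9.47. In Tlr997 they were 7.86, 8.01 and 7.81 without and 8.19, 8.28 and 8.54 with CpG. Stimulated libraries lay above unstimulated ones in both genotypes without overlap, and the gap between the nearest libraries was 1.29 log2 units in Tlr9het and 0.18 in Tlr997. The log2 fold change was 1.46 in Tlr9het (SE 0.098, adjusted p = 1.36e-08) and 0.45 in Tlr997 (SE 0.098, adjusted p = 0.00106). Between Tlr9het libraries of the same number it was 1.61, 1.31 and 1.45. In Tlr997 the fold change went over the threshold without unstimulated replicate 2 (0.51) or without CpG replicate 1 (0.52). In Tlr779, CL097 raised Ptpn1 from 7.81, 7.96 and 7.88 to 9.13, 8.82 and 8.30, a log2 fold change of 0.87 (SE 0.183, adjusted p = 0.00378). The stimulated Tlr779 libraries were spread more widely than any other group for this gene, with an SD of 0.42, but none fell to the unstimulated range. Between libraries of the same number the response to CL097 was 1.32, 0.87 and 0.42.

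Ptpn22 fell with CpG in both genotypes of the first arm, and more in Tlr997. It encodes a lymphoid PEST phosphatase (LYP in humans, PEP in mice) that restrains antigen receptor signaling together with Csk. In Tlr9het libraries 1 to 3 it was at 6.80, 6.65 and 6.68 log2 CPM without and 6.18, 6.24 and 6.12 with CpG. In Tlr997 it was at 6.48, 7.099 and 6.98 without and 4.93, 5.49 and 5.40 with CpG. The groups did not overlap in either genotype, and the library with the lowest level in each Tlr997 group was replicate 1. The log2 fold change was -0.53 in Tlr9het (SE 0.156, adjusted p = 0.00762) and -1.58 in Tlr997 (SE 0.156, adjusted p = 7.76e-07). The call in Tlr9het was lost without unstimulated replicate 1 (-0.48), without CpG replicate 3 (-0.50) and with no filter on low values (adjusted p = 0.051). In Tlr779 the levels were 6.71, 6.42 and 6.40 without and 6.36, 6.12 and 5.76 with CL097, and the log2 fold change of -0.43 (SE 0.156, adjusted p = 0.0439) was under the fold threshold. Without CL097 replicate 1 it was called at -0.57.

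**Figure D1:**
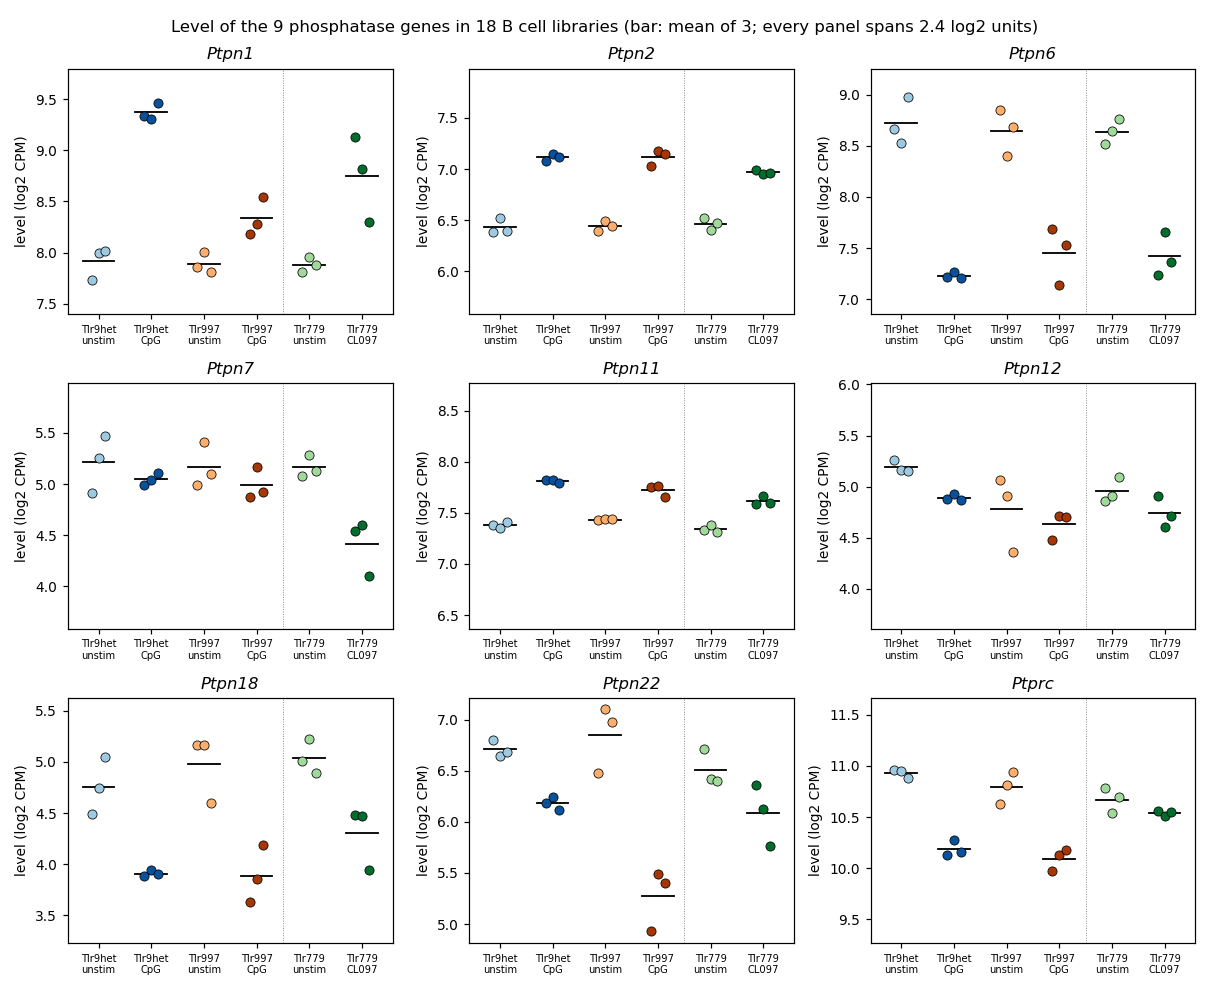
Level of each phosphatase gene in log2 CPM (vertical axis, 2.4 log2 units in every panel) in the 6 groups (horizontal axis); each point is a library and each bar the mean of 3. Ptpn1 rose furthest in Tlr9het with CpG (mean 9.37), Ptpn22 was lowest in Tlr997 with CpG (mean 5.27), and Ptpn6 lay near 7.2 to 7.5 on average in all 3 stimulated groups.

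The stretches of genome just before the transcription starts of Ptpn1 and Ptpn22 are shown because these were the members whose CpG response differed between Tlr9het and Tlr997 (below). They come from RefSeq on GRCm38.p6, both on the plus strand, and each ends at the base before the start of the protein-coding transcript. Ptpn1 spans positions 167932057 to 167979385 of chromosome 2 in the GENCODE annotation and Ptpn22 spans 103859795 to 103912247 of chromosome 3. The Ptpn1 stretch, chr2:167932077-167932326, lies within the first exon of a non-coding transcript of the same gene, and the Ptpn22 stretch, chr3:103860027-103860276, lies in an intron of another transcript of that gene. Capitals mark matches on either strand to the GC box GGGCGG in Ptpn1 and to the STAT motif TTCNNNGAA in Ptpn22.
Ptpn1: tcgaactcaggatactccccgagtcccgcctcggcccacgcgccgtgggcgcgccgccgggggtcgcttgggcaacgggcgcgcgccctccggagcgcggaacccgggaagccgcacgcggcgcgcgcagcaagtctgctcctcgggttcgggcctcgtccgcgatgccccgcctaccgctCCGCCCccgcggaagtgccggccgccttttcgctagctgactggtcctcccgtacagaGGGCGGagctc
Ptpn22: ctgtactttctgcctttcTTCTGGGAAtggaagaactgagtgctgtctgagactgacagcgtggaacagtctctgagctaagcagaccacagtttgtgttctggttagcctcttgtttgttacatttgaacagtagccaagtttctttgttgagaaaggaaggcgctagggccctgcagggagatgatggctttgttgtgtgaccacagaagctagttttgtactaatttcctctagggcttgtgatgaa

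Both windows, taken from 250 bases before to 50 after the start, differ in composition. The Ptpn1 window was 74.0% G or C with 47 CG dinucleotides, and the Ptpn22 window was 48.7% G or C with 3, against medians of 52.7% and 7 over 32851 mouse promoters of the same length. The GC box matches began 69 and 11 bases before the Ptpn1 start, and 35.66% of all promoters hold such a match. The STAT motif match began 232 bases before the Ptpn22 start shown, and 8.3% of all promoters hold one. The RefSeq table gives Ptpn22 another start further upstream, whose window (46.0% G or C, with 6 CG) holds no match to this motif. Neither window held a match to the AP-1 motif TGANTCA (7.81% of all promoters), to the CRE motif TGACGTCA (1.79%) or to the NF-kB motif (8.46%). Such matches describe these letters and are not evidence of a bound factor. Of the members, 7 had a promoter sequence that was used.

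In Tlr9het, CpG moved 6 of the 9 phosphatase genes past the call, with 2 higher and 4 lower. Of all 11494 genes tested, 29.7% were called higher and 28.2% lower, so a call was common among genes of every kind. The median log2 fold change was -0.30 over the 9 members and 0.04 over all genes tested. Ptpn2, which encodes the nuclear and reticular relative of PTP1B, rose from 6.39, 6.52 and 6.39 to 7.08, 7.15 and 7.12 log2 CPM, a log2 fold change of 0.68 (SE 0.059, adjusted p = 1.79e-07). Ptpn6, which encodes SHP-1, fell from 8.67, 8.53 and 8.97 to 7.22, 7.27 and 7.203, a log2 fold change of -1.49 (SE 0.145, adjusted p = 5.68e-07). Each stimulated library of both genes was outside the range of the unstimulated ones. Ptprc, which encodes CD45, fell from 10.96, 10.95 and 10.88 to 10.13, 10.27 and 10.16, or by 0.74 on the log2 scale (SE 0.079, adjusted p = 1.39e-06). Ptpn18, a PEST phosphatase whose protein meets Csk, fell from 4.49, 4.75 and 5.05 to 3.88, 3.94 and 3.90, or by 0.85 (SE 0.182, adjusted p = 0.000857). These groups did not overlap, although unstimulated Ptpn18 levels were spread over more than 0.5 log2 units. Ptpn11, which encodes SHP-2, passed the p threshold but not the fold threshold, from 7.38, 7.35 and 7.41 to 7.82, 7.82 and 7.79 (log2 fold change 0.43, SE 0.046, adjusted p = 1.44e-06). Ptpn7 and Ptpn12 were not called, at -0.17 (adjusted p = 0.304) and -0.30 (adjusted p = 0.079).

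In Tlr997, CpG moved 5 members past the call, with 1 higher and 4 lower, against 29.6% of all genes tested called higher and 26.0% lower. The member that left the higher side was Ptpn1, as described above, and Ptpn2, Ptpn6, Ptpn18, Ptpn22 and Ptprc were called in the direction they had in Tlr9het. Ptpn2 went from 6.40, 6.49 and 6.44 to 7.03, 7.18 and 7.15 log2 CPM, a log2 fold change of 0.68 (SE 0.059, adjusted p = 2.25e-07). Ptpn6 went from 8.85, 8.40 and 8.69 to 7.69, 7.14 and 7.53, a log2 fold change of -1.19 (SE 0.145, adjusted p = 5.94e-06). Replicate 2 was the lowest Ptpn6 library in both Tlr997 groups, and the groups did not overlap. Ptprc fell by 0.70 (SE 0.079, adjusted p = 2.73e-06), from 10.63, 10.81 and 10.94 to 9.97, 10.13 and 10.17. Ptpn18 fell by 1.09 (SE 0.182, adjusted p = 0.00012), from 5.17, 5.16 and 4.60 to 3.63, 3.86 and 4.19. Ptpn11 was again over the p threshold and under the fold threshold, at 0.29 (SE 0.046, adjusted p = 7.78e-05). Ptpn7 was at -0.18 (adjusted p = 0.273) and Ptpn12 at -0.15 (adjusted p = 0.382), and the stimulated and unstimulated libraries of these genes overlapped. Single libraries moved these values: Ptpn12 was at -0.0017 without unstimulated replicate 1 and at -0.35 (adjusted p = 0.00358) without unstimulated replicate 3, still under the fold threshold, and Ptpn7 ranged from -0.27 to -0.058. The median over the 9 members was -0.18, against 0.07 over all genes tested.

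**Figure D2:**
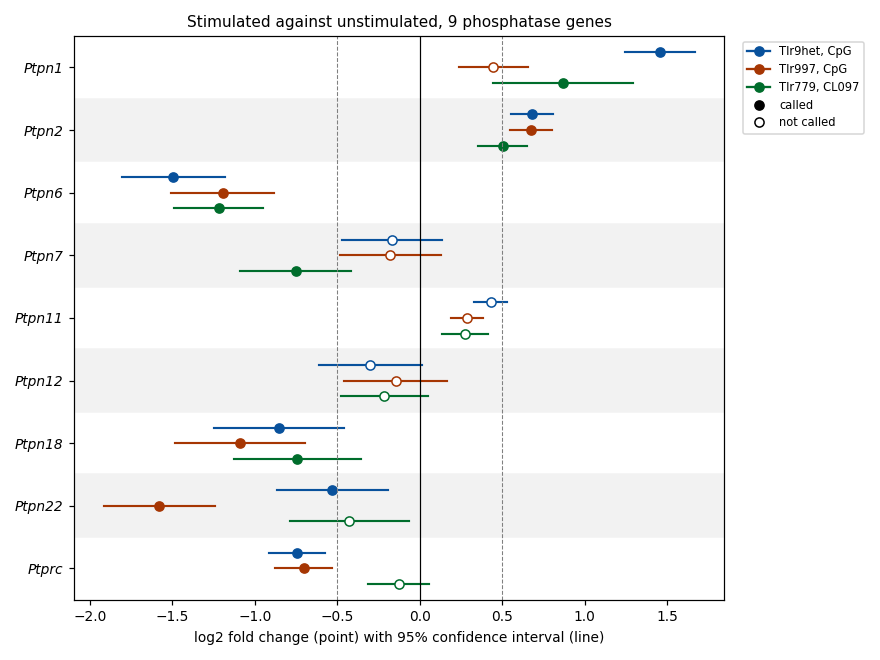
Log2 fold change of stimulated against unstimulated cells (horizontal axis) for the 9 members in Tlr9het and Tlr997 with CpG and in Tlr779 with CL097; points are estimates from limma, lines 95% confidence intervals, filled points called genes, and dashed lines the fold threshold of 0.5. Ptpn2 and Ptpn6 lay on the same side with filled points in each genotype, Ptpn1 ranged from 0.45 to 1.46, and Ptpn22 from -1.58 to -0.43.

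In Tlr779, CL097 moved 5 members past the call, with 2 higher and 3 lower, against 22.7% of 11082 genes tested called higher and 23.6% lower. The median was -0.21 over the members and -0.02 over all genes tested. Beside Ptpn1, Ptpn2 rose from 6.53, 6.40 and 6.47 to 6.99, 6.95 and 6.97 log2 CPM. Its log2 fold change of 0.50 (SE 0.064, adjusted p = 0.000273) was just over the fold threshold, and it fell under it without unstimulated replicate 2 (0.47) or CL097 replicate 1 (0.49). Ptpn6 fell from 8.51, 8.64 and 8.76 to 7.23, 7.66 and 7.37, a log2 fold change of -1.22 (SE 0.117, adjusted p = 5.81e-05). Ptpn7, the MAP kinase phosphatase, fell from 5.08, 5.29 and 5.13 to 4.54, 4.60 and 4.10, a log2 fold change of -0.75 (SE 0.146, adjusted p = 0.0025). Ptpn18 fell from 5.01, 5.23 and 4.89 to 4.48, 4.47 and 3.95, or by 0.74 (SE 0.167, adjusted p = 0.0054). For these 4 genes no stimulated library reached the unstimulated range. Here and in the other comparisons, the share of all genes tested whose groups were apart in this way was not counted. Ptprc was at 10.78, 10.54 and 10.69 without and 10.56, 10.51 and 10.55 with CL097, and the groups overlapped (log2 fold change -0.13, 95% confidence interval -0.32 to 0.06, adjusted p = 0.202). Ptpn11 was at 0.27 (adjusted p = 0.00447) and Ptpn12 at -0.21 (adjusted p = 0.141), both under the fold threshold.

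With CpG present, Ptpn1 and Ptpn22 were lower in Tlr997 than in Tlr9het, and the other 7 members were not called. Over all 11494 genes tested, 1.26% were called higher in Tlr997 and 1.47% lower, so calls were rare in this comparison. Ptpn1 was at 0.49 times its Tlr9het level (log2 fold change -1.03, SE 0.098, adjusted p = 7.5e-05), and the nearest libraries of the groups were 0.76 log2 units apart. Ptpn22 was at 0.53 times its Tlr9het level (log2 fold change -0.91, SE 0.156, adjusted p = 0.00426), with the nearest libraries 0.63 apart. The adjusted p of Ptpn22 was 0.054 with no filter on low values. By log2 fold change Ptpn1 had rank 140 and Ptpn22 rank 189 from the lowest of 11494. Ptpn2 differed by 0.0030 with a 95% confidence interval of -0.12 to 0.13, and Ptprc by -0.09 (-0.26 to 0.08). The intervals of Ptpn6 (-0.09 to 0.54), Ptpn18 (-0.41 to 0.37), Ptpn7 (-0.36 to 0.25) and Ptpn12 (-0.57 to 0.05) were wider and cannot show that the genotypes were alike. For Ptpn11 and Ptpn12 the libraries of the genotypes did not overlap, but the Ptpn11 difference was -0.09 (adjusted p = 0.309) and the Ptpn12 difference -0.26 (adjusted p = 0.367).

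Unstimulated, none of the 9 members was called between the genotypes, against 0.0174% of all genes called higher in Tlr997 and 0% lower. In this comparison limma gave 1237 genes an unadjusted p under 0.05, and Ptpn12 was the one member among them. Ptpn12, which encodes PTP-PEST, was at 5.27, 5.17 and 5.15 in Tlr9het and 5.07, 4.91 and 4.36 in Tlr997, a log2 fold change of -0.41 (SE 0.145, adjusted p = 0.383). Replicate 3 of unstimulated Tlr997 was the lowest library, and without it the value was -0.21. As with CpG, the libraries of the genotypes did not overlap for Ptpn11 and Ptpn12, with gaps of 0.021 and 0.082 log2 units. Unstimulated Ptpn11 was at 7.38 on average in Tlr9het and 7.43 in Tlr997, the other direction than with CpG. Ptpn1 was at 7.91 ± 0.16 (SD, n = 3) in Tlr9het and 7.89 ± 0.10 in Tlr997, and Ptpn22 at 6.71 ± 0.08 and 6.85 ± 0.33, so the libraries of both genes overlapped before CpG.

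The difference of the CpG responses was called for Ptpn1 and Ptpn22 and for none of the other 7 members, with 0.687% of all genes called higher in Tlr997 and 0.853% lower. These shares rest on 177 calls, a number that went from 87 to 295 when single libraries were left out (87 without Tlr9het unstimulated replicate 1 and 295 without Tlr997 unstimulated replicate 3), to 78 with no filter on low values and to 328 with a block within genotype. The response of Ptpn1 was smaller in Tlr997, with a difference of -1.01 log2 units (SE 0.138, adjusted p = 0.00275), and it was called whichever of the 12 libraries was left out. The fall of Ptpn22 was larger in Tlr997, with a difference of -1.05 (SE 0.220, adjusted p = 0.0298). The p-value of that call was near the threshold, and the call was lost without Tlr9het unstimulated replicate 1 (-1.09), 2 (-1.02) or 3 (-1.04), without Tlr9het CpG replicate 1 (-1.05), 2 (-1.02) or 3 (-1.08), and without Tlr997 unstimulated replicate 2 (-0.93). The size of the Ptpn22 difference in these fits stayed at -0.93 to -1.09, while its adjusted p was 0.053 to 0.080. The adjusted p was 0.17 with no filter on low values and 0.096 without a variance trend. With the replicate number as a block it was 0.0145, and with a block within genotype 0.000325, although the numbers were not shown to pair the Tlr997 samples. Between libraries of the same number the Ptpn22 response was -0.62, -0.41 and -0.57 in Tlr9het and -1.55, -1.61 and -1.58 in Tlr997. Ptpn11 had an unadjusted p of 0.045 and an adjusted p of 0.295, with a difference of -0.14. This test shares its libraries with the CpG comparison of the genotypes, so the agreement of the calls is not a second line of evidence.

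**Figure D3:**
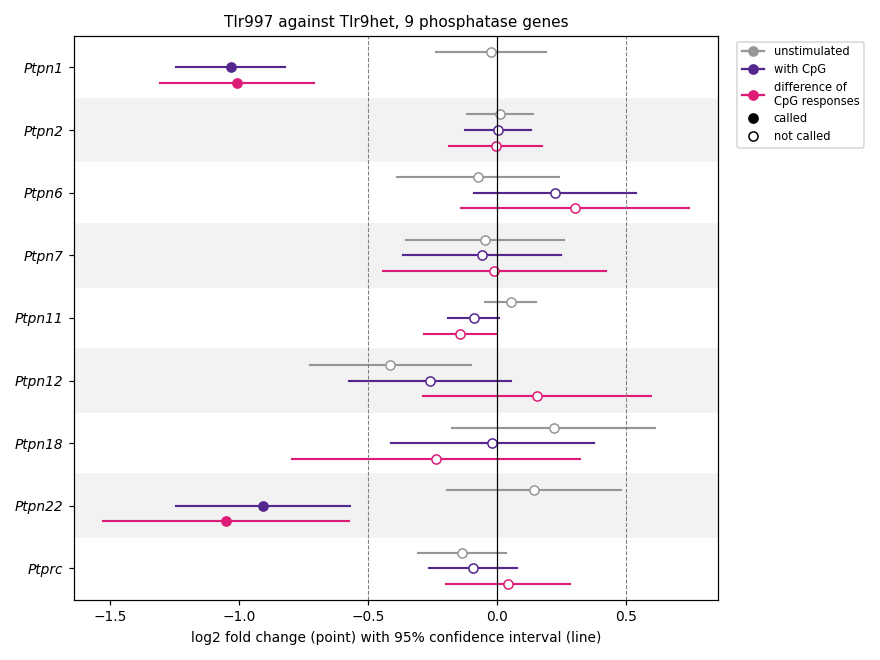
Log2 fold change of Tlr997 against Tlr9het (horizontal axis) for the 9 members, unstimulated and with CpG, and the difference of the CpG responses; points are estimates from limma, lines 95% confidence intervals and filled points called genes. Ptpn1 and Ptpn22 lay between -1.05 and -0.91 with CpG and in the difference of responses, and near 0 without stimulus.

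Markers of other cells were compared beside these genes. With CpG, the 6 T cell markers summed to 10.7 to 24.0 CPM in Tlr9het and 8.84 to 18.9 in Tlr997, and the 5 macrophage markers to 123 to 141 and 80.9 to 166 CPM. None of these 11 markers was called between the genotypes with CpG, where 1.26% of all genes were called higher and 1.47% lower. The 4 B cell markers summed to 1118 to 1173 CPM in Tlr9het and 1976 to 2430 in Tlr997 with CpG, without overlap. Of them, 2 were called higher in Tlr997, Cd79b by 1.04 and Ms4a1 by 1.26 on the log2 scale. The other 2 were not called, with Cd79a at 0.04 and Pax5 at -0.13. Unstimulated, the B cell sums overlapped, at 4739 to 5282 and 4523 to 5075 CPM. The part of these shifts in the Ptpn1 and Ptpn22 differences was not tested.

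Compared per length of the gene, the order of the members depended on which length was used. With the union of all annotated exons, the mean log2 CPM per kilobase in unstimulated Tlr9het was 7.24 for Ptpn6, 6.73 for Ptprc, 5.45 for Ptpn1, 4.79 for Ptpn2, 4.48 for Ptpn11, 3.95 for Ptpn22, 3.38 for Ptpn12, 2.60 for Ptpn7 and 2.06 for Ptpn18. Neighbours in this order had libraries that did not overlap, except Ptpn7 and Ptpn18. The Ptprc exons joined to 18313 bases, whereas its longest transcript had 5740, and with longest transcripts Ptprc was first in all 6 groups, at 8.41 in unstimulated Tlr9het. With CpG, Ptpn1 was first in Tlr9het by exon union (6.90) and second by longest transcript (7.27). The share of Ptpn1 in the summed CPM per kilobase of the 9 genes rose in either case. By exon union it went from 11.3% ± 1.1 to 35.4% ± 1.8 in Tlr9het with CpG, from 11.6% ± 1.2 to 21.3% ± 1.9 in Tlr997 and from 11.9% ± 0.73 to 25.2% ± 5.2 in Tlr779 with CL097 (SD, n = 3). By longest transcript the shares were 8.03% and 27.9%, 8.32% and 16.5%, and 8.75% and 18.4%. The share of Ptpn6 by exon union fell from 39.0% to 15.8% in Tlr9het, from 38.7% to 23.0% in Tlr997 and from 39.8% to 19.7% in Tlr779. The exons of Ptpn6 overlap the antisense gene Gm20531 over 195 bases and those of Ptpn18 overlap Gm28417 on the other strand over 492 bases, and whether reads were counted by strand is not stated.

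**Figure D4:**
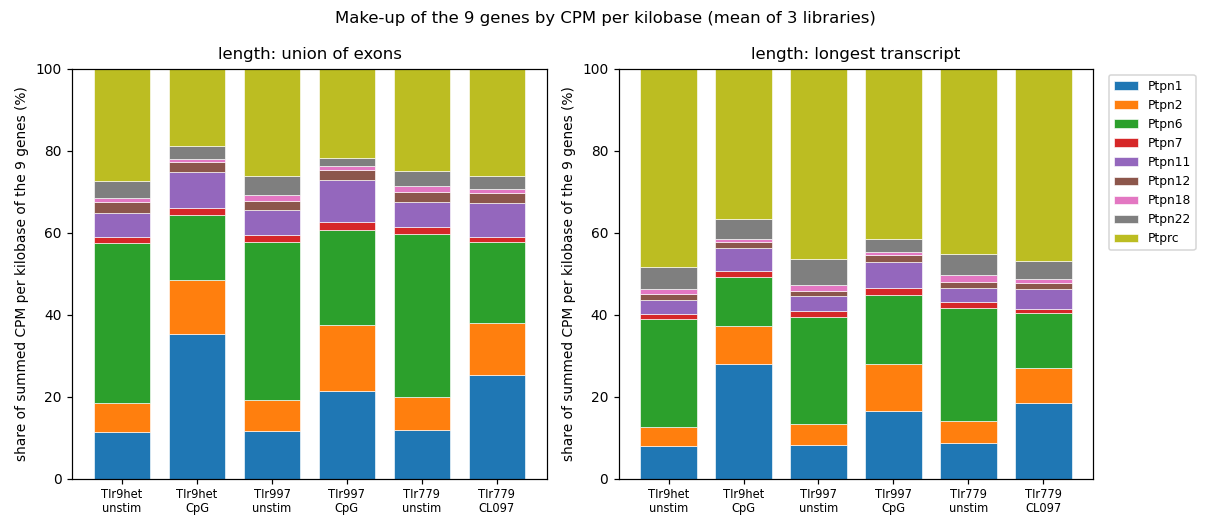
Share in percent of each member in the summed CPM per kilobase of the 9 genes (vertical axis, mean of 3 libraries) in the 6 groups, with the union of exons (left) or the longest transcript (right) as the length. The Ptpn1 part grew from 11.3% to 35.4% in Tlr9het with CpG on the left and from 8.03% to 27.9% on the right, while the Ptprc part was larger on the right in each group.

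Over the 12 libraries of the first arm, the genes whose pattern was most like that of Ptpn1 were Cpne3 (Pearson r = 0.985), Etv3 (0.981), Mfhas1 (0.974), Mapk1ip1l (0.969) and Sbno2 (0.968), of 9369 genes compared. These correlations are descriptions, since the 12 points share 4 group means. Mfhas1 went from 5.69 to 7.55 log2 CPM on average in Tlr9het with CpG and from 5.71 to 6.51 in Tlr997. Etv3 went from 7.16 to 7.78 and from 7.19 to 7.42. All 5 genes thus had a larger mean rise in Tlr9het than in Tlr997, as the choice by likeness to Ptpn1 implies.

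Of the other classical protein tyrosine phosphatases, most were too low to test or were not called, and more were called lower than higher. Of 29 such genes in the files, 14 were tested in the first arm. Among all genes tested, 29.7% were called higher and 28.2% lower in Tlr9het, 29.6% and 26.0% in Tlr997, and 22.7% and 23.6% with CL097, with medians of 0.04, 0.07 and -0.02. In Tlr9het, 1 was called higher and 6 lower, with a median of -0.22 over the 14. Ptpn4 rose by 0.62 (SE 0.079, adjusted p = 8.86e-06), and Ptpn14 (-3.50), Ptprv (-2.77) and Ptprj (-1.83) fell furthest. Ptprj encodes CD148, a membrane phosphatase that, like CD45, acts on Src family kinases. In Tlr997, 0 were called higher and 5 lower, with a median of -0.30, and Ptpn14 (-3.52), Ptprj (-2.23) and Ptprv (-2.11) again fell furthest. With CL097, 13 were tested, of which 0 were called higher and 6 lower, with a median of -0.61, among them Ptpn14 (-2.85), Ptprj (-1.95) and Ptprv (-0.75). Between the genotypes of the first arm 0 of the 14 were called, with CpG, without it or in the difference of responses. Of all genes tested, 1.26% were called higher and 1.47% lower with CpG, and 0.0174% and 0% without it. In the difference of responses the shares were 0.687% and 0.853%. Ptprj was at -0.48 in Tlr997 against Tlr9het with CpG (limma, SE 0.073, adjusted p = 0.0023), just under the fold threshold.

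**Figure D5:**
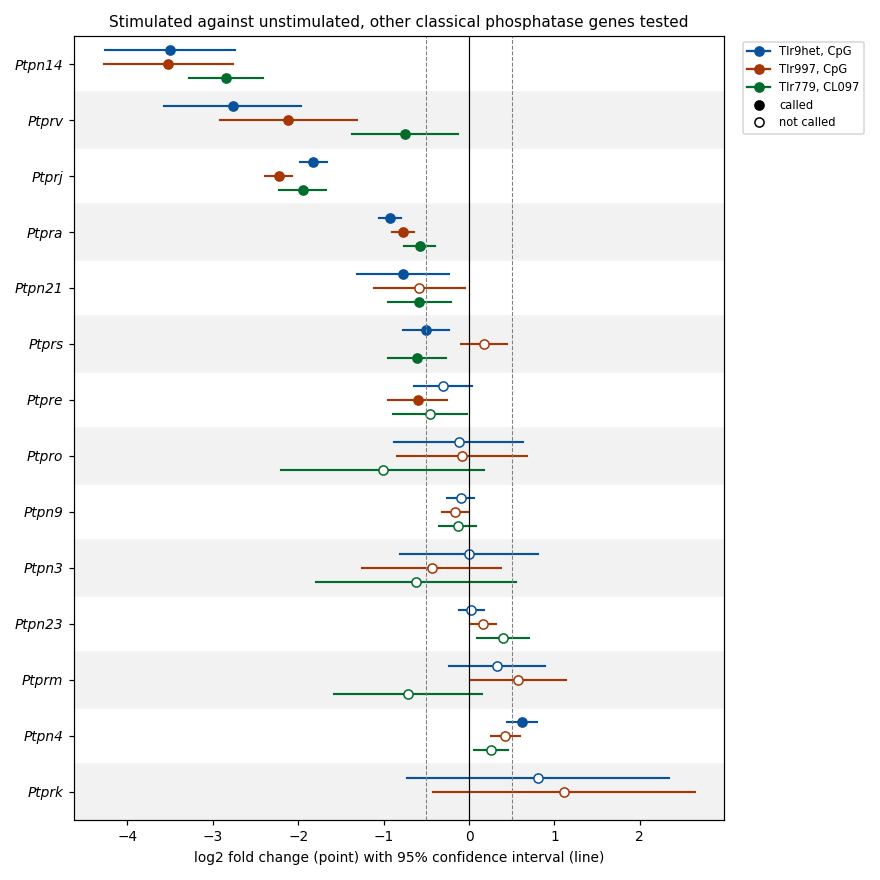
Log2 fold change of stimulated against unstimulated cells (horizontal axis) for the other classical phosphatase genes that were tested, ordered by the value in Tlr9het; points are estimates from limma, lines 95% confidence intervals and filled points called genes. Ptpn14, Ptprv, Ptprj and Ptpra had filled points on the lower side in all 3 responses, and Ptpn4 (0.62 in Tlr9het) was the one filled point on the higher side.

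Genes of the routes on which these phosphatases act were counted in lists by role. For each list the shares of all genes called in the same responses are the measure, namely 29.7% higher and 28.2% lower in Tlr9het, 29.6% and 26.0% in Tlr997, and 22.7% and 23.6% with CL097, with medians of 0.04, 0.07 and -0.02. Of 8 Janus kinases and STATs, the targets of PTP1B and TC-PTP, 2 were called higher and 3 lower in Tlr9het (median -0.31), 2 and 3 in Tlr997 (-0.11) and 2 and 1 with CL097 (0.08). Stat5a rose by 2.05, 2.63 and 2.18 and Stat3 by 1.04, 0.76 and 1.44 in these responses. Tyk2, one of the kinases that PTP1B acts on, was at -1.70, -1.40 and -1.02 and was called lower each time. In the difference of responses Stat5a (0.57, adjusted p = 0.0492 in limma, near the threshold) and Stat5b (0.54, adjusted p = 0.0292) were called. Of all genes, 0.687% were called higher and 0.853% lower there. Between the genotypes neither was called, at 0.33 and 0.32 with CpG and -0.24 and -0.22 without it.

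Of 14 receptors that can recruit SHP-1 or SHP-2, 4 were called higher and 6 lower in Tlr9het (median -0.52), 3 and 6 in Tlr997 (-0.51) and 2 and 8 with CL097 (-1.27), where 28.2%, 26.0% and 23.6% of all genes were called lower. Cd22, the sialic acid receptor that brings SHP-1 to the B cell receptor, was called lower at -3.29, -2.71 and -1.85 in the Tlr9het, Tlr997 and CL097 responses. Ceacam1 was called lower at -2.84, -3.09 and -3.56. Fcrl5, an Fc receptor-like protein with ITIM motifs, rose by 2.42, 2.17 and 2.30. Between the genotypes with CpG, Cd22 was called higher in Tlr997, at 0.58 (adjusted p = 0.0112), and the other 13 receptors were not called. Of all genes, 1.26% were called higher and 1.47% lower in that comparison.

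Of 10 Src family and proximal kinases and their Csk partners, on which CD45 and the PEST phosphatases act, 0 were called higher and 5 lower in Tlr9het (median -0.67), 0 and 7 in Tlr997 (-0.75) and 0 and 5 with CL097 (-0.40), where again 28.2%, 26.0% and 23.6% of all genes were called lower. Btk, the kinase that activates phospholipase C in B cells, was called lower at -3.22, -2.52 and -1.27, and Syk, which binds phosphorylated ITAMs, was called lower at -2.43, -1.69 and -1.59. Csk, which places the inhibitory phosphate on Src kinases, was called lower at -1.15, -1.23 and -0.78. Pag1, the membrane adaptor that binds Csk, was called lower at -1.58, -1.95 and -1.44. Between the genotypes with CpG, Syk (0.63) and Btk (0.59) were higher in Tlr997, and Fgr (-0.88) was lower. Syk (0.75) and Btk (0.70) were also called in the difference of responses. Fyn, a Src kinase on this list that is named after its values were seen, was the gene most like Ptpn22 over the 12 libraries (r = 0.979), and its CpG response was -0.31 in Tlr9het, not called, and -0.53 in Tlr997, called lower.

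For the last 3 lists the shares of all genes called were as above, 29.7%, 29.6% and 22.7% higher and 28.2%, 26.0% and 23.6% lower. Of 8 SHP-2 and Ras adaptors, 1 was called higher and 5 lower in Tlr9het (median -0.77), 0 and 5 in Tlr997 (-0.71) and 1 and 2 with CL097 (-0.35). Gab3, a docking protein for SHP-2, was called lower at -3.09, -3.20 and -1.54. Of 6 MAP kinases tested, 0 were called higher and 4 lower in Tlr9het (median -0.96), 1 and 3 in Tlr997 (-0.62) and 0 and 4 with CL097 (-0.61). Mapk14, which encodes p38 alpha, was called lower at -2.14, -2.02 and -2.004, and Mapk3, which encodes ERK1, was called higher in Tlr997 between the genotypes with CpG, at 0.57. Of 7 partners of the PEST phosphatases tested, 2 were called higher and 2 lower in each of these responses, with medians of -0.08, -0.02 and -0.03. Pxn, which encodes the focal adhesion adaptor paxillin, rose by 1.73, 1.39 and 1.18, and Was, which encodes the WASP actin regulator, was called lower at -1.39, -1.11 and -1.14. Unstimulated, 0 genes of these 6 lists were called between the genotypes, against 0.0174% of all genes called higher and 0% lower. All lists were chosen with earlier results of these data known.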

How the data were processed

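The authors purified splenic B cells by negative selection, made stranded mRNA libraries, aligned reads with STAR 2.6.1a to mm10, counted them with featureCounts (Subread 2.0.1) and applied quantile normalization and voom. The deposited values are log2 CPM, 1 file per sample, with the counts not analysed here. They carry a correction by replicate number: in the first arm 6614 genes lay below -4 in all 12 libraries, of which 6306 held 1 value per number, and for 822 of these that value differed between numbers.

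From these values, limma 3.58.1 (R 4.3.3) was fitted with a variance trend and a mean per group, over the 12 libraries of the first arm or the 6 of the second. No pseudocount was added. Genes were tested where at least 3 libraries were over 0 log2 CPM. Calls needed an adjusted p under 0.05 and a log2 fold change over 0.5 in size, the thresholds of the study. The script was tested on simulated data. For CpG in Tlr9het it recovered 71 of 100 genes changed by 1 log2 unit and 87 of 100 changed by 2. For CL097 in Tlr779 it recovered 63 and 89 of 100. False calls numbered 6 and 5. Only these few genes were changed in the simulation, out of 11494 for CpG in Tlr9het. In the limma fit of that response 8353 of 11494 genes had an adjusted p under 0.05. The adjusted p is stricter where few genes change, so these rates cannot be carried over to the fits here. A gene that was not called may still have changed. The labels describe 3 mice per genotype and tie no library to a mouse, so p-values measure the spread between these samples. Same-numbered samples deviated together in Tlr9het (r = 0.52, 0.27 and 0.51) and Tlr779 (0.22, 0.41 and 0.28), which were taken as pairs, but not in each Tlr997 pair (0.39, 0.066 and 0.036). The main fits held no block for pairs, and they made no allowance for the correction by replicate number. Members, marker lists, the other phosphatases and the 6 lists of partners were chosen with earlier results of these data known. Named were the 9 members, the called phosphatases of largest change in either direction, up to 4 called genes of each other list, and the 5 genes most like Ptpn1. Fyn, Mapk3, Stat5b and the marker genes were named after their values were seen. Lengths came from GENCODE M21 and promoters from RefSeq. Alternatives covered filters, variance models, scaling, the fold threshold, a replicate block and leaving out each library. Some genes of the lists are not reported here and were left out of their counts and sums.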

Additional observations from a re-analysis of the deposited data

Results flagged for a closer look

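The CpG response of Ptpn1 differed between the genotypes, by -1.01 on the log2 scale (Tlr997 minus Tlr9het, interaction test in limma, adjusted p = 0.00275). The CpG response of Ptpn22 also differed, by -1.05 (adjusted p = 0.0298), near the threshold. Leaving out any one of 7 libraries kept its size (-0.93 to -1.09) but took its adjusted p to 0.053 to 0.080. The adjusted p was also over 0.05 with no filter on low values and without a variance trend. A replicate block within genotype gave 0.000325, although the numbers were not shown to pair the Tlr997 samples. Ptpn1 rose less and Ptpn22 fell more in Tlr997.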

How the results depend on the processing

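Of 20 called member results, 0 of 405 values under the alternatives changed direction and 29 lost the call, while of 720 values of the 34 results not called, 28 changed direction and 3 became calls. Under a fold threshold of 1 the members called fell to 2 (CpG in Tlr9het), 3 (CpG in Tlr997), 1 (Tlr997 against Tlr9het with CpG) and 1 (CL097). With no filter on low values they were 1 for the genotypes with CpG, 1 for the difference of responses and 3 for CL097, where Ptpn1 and Ptpn18 lost the call (adjusted p = 0.059 and 0.054). Without a variance trend 1 was called in the difference of responses, and leaving out single libraries gave 1 to 2 there. With 1 CPM added, Ptpn2 lost its CL097 call (0.499). Over all genes, a fold threshold of 1 left 4058, 3767, 74 and 2581 calls of 6650, 6388, 314 and 5134, and no filter left 188 of 314 and 78 of 177. For the difference of responses there were 46 at a fold threshold of 1, 98 without a variance trend and 87 to 295 without single libraries (87 without Tlr9het unstimulated replicate 1, 101, 101 and 90 without CpG replicates 1, 2 and 3, and 295 without Tlr997 unstimulated replicate 3). Between the genotypes with CpG there were 187 without Tlr9het CpG replicate 1. Unstimulated, the 2 calls became 0 with no filter or with only the groups compared, and 4 without Tlr997 unstimulated replicate 2 or 3. With the replicate block the members called were unchanged (6, 5, 2, 0, 2 and 5), and so was each member's call. The block within genotype gave 328 genes for the difference of responses against 177, with an adjusted p of 0.000325 for Ptpn22. That block takes same-numbered Tlr997 samples as pairs, which was not shown. Leaving out single libraries, uncalled values ranged across 0. With CpG, Ptpn2 went from -0.0265 to 0.046 (-0.0020 with median-centred libraries) and Ptpn18 from -0.17 to 0.11. Unstimulated, Ptpn1 went from -0.12 to 0.025, Ptpn2 from -0.015 to 0.053, Ptpn6 from -0.18 to 0.050 and Ptpn7 from -0.20 to 0.082. In the difference of responses Ptpn2 went from -0.050 to 0.036, Ptpn7 from -0.14 to 0.14, Ptpn12 from -0.056 to 0.30 and Ptprc from -0.041 to 0.11. By longest transcript Ptpn1 was at 7.27 log2 CPM per kilobase with CpG in Tlr9het, and the rank of all 9 members moved in at least 1 group. Fitting only the groups compared could not be done for the difference of responses or CL097, which already use all libraries of their arm. The unknown depth limits what can be said of low genes. The cause of these shifts was not tested.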
